A study of Mus musculus with 6 samples.

Results

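The genes described here are 33 genes of glycolysis, lactate metabolism and glucose transport, measured by RNA-Seq in mouse embryonic stem cells (mESCs). They were chosen by name, as carriers, enzymes and regulators of the route from glucose uptake to lactate export and pyruvate oxidation, with earlier results of the same comparison known. Of the 43309 genes in the deposited table, these 33 were all present, and all 33 were among the 16823 genes tested. Their differences between the groups are therefore given as a description.

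The libraries came from 6 mESC lines of strain J1 (129SV), grown in medium with serum on gelatin and with no feeder cells. The control group held 3 wild-type lines, with the Zbtb24 genotype 2lox/+, so the controls also carry 1 altered allele. The other group held 3 lines labelled Zbtb24 knockout, with the genotype 1lox/1lox. Zbtb24 encodes a zinc finger transcription factor, and the question put to the comparison here is how expression differs when it is deleted. The paper that reported the libraries compared RNA-Seq kits, and used these as the reference for judging a kit for low input. Each line was a separate clone and gave 1 TruSeq Stranded mRNA library, made from 2 µg of total RNA with 8 cycles of PCR. The p-values below set each difference between the groups against the spread between these lines. That spread was narrow for some genes, as for Aldoc with 382, 372 and 371 counts in the controls. A very small p-value therefore does not show how other clones would differ. Clonal differences that are shared by the lines of a group cannot be told apart from the deletion.

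Library totals ran from 25042261 to 28838924 counted fragments. Zbtb24 itself went against its label when counted over the whole gene. It had 510, 512 and 489 fragments in the controls and 888, 925 and 1039 in the other group, 0.99 ± 0.05 on the log2 scale (SE, n = 3 and 3), and the deleted part cannot be seen in a count over the whole gene. For that reason the second group appears below as the libraries labelled knockout. The defining markers of mESCs were all detected, and their summed level was 4695 to 4792 cpm (counts scaled to the library total times its TMM factor) in the controls and 6009 to 6037 in the libraries labelled knockout. Of these 8 markers 7 were called higher, among them Klf4 at 1.90 and Esrrb at 1.16, and Zfp42 was called lower at -0.77. Zfp42 lies on chromosome 8, where the median log2 fold change was -0.55 for 228 other genes up to 60 Mb and -0.08 for 591 beyond it. The 8 markers of differentiated lineages summed to at most 18.9 cpm in any library. The 6 fibroblast markers summed to 723 to 761 cpm in the controls and 1130 to 1161 cpm in the libraries labelled knockout, most of it Fn1, while Col1a1 and Col1a2 were lower, at -3.39 and -3.15 on the log2 scale (adjusted p = 7.29e-39 and 6.09e-25, edgeR quasi-likelihood test with Benjamini-Hochberg adjustment). Fn1 lies on chromosome 1, whose 979 other genes had a median of 0.50. The part of fibroblasts and of differentiated cells in the results below was not tested.

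Glycolysis splits glucose into pyruvate in a fixed series of steps, and cells make either lactate from the pyruvate or pass it to the mitochondria through the pyruvate dehydrogenase complex. Most steps can be run by several isozymes, encoded by separate genes with different tissue patterns and different control. Mouse ES cells in serum are known for a high rate of glycolysis, and many of these genes are textbook targets of the hypoxia-inducible factors and of Myc.

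Most of the 33 genes were higher in the libraries labelled knockout. Together they took 1.29%, 1.30% and 1.30% of all counted fragments in the 3 controls and 1.88%, 1.81% and 1.76% in the 3 libraries labelled knockout. On average this was 1.30% ± 0.0064 and 1.82% ± 0.06 (SD, n = 3 each), a ratio of 1.40. Without Gapdh, Eno1 and Pkm, the 3 genes with the most counts in the controls, the ratio was 1.53. With the FDR (false discovery rate) held to 0.05 by edgeR's quasi-likelihood test, 24 of the 33 were called higher, 4 lower and 5 neither. Over all 16823 genes tested, 69.5% were called, 34.4% higher and 35.2% lower, so a call is common in these data, and the list was chosen on this contrast. The genes of the list are also well counted: 32 of them averaged 100 counts or more, and 77.1% of all such genes were called. Of these 11115 genes, 4623 were called higher and 3951 lower. The median log2 fold change was 0.37 for the list and -0.0004 for all genes tested. Of the genes called higher, 12 were at least 1.5-fold and 4 at least 2-fold higher, and 2 of those called lower were at least 1.5-fold lower. For 27 of the 33, the 2 groups' normalized values had no overlap, beside 71.5% of all genes tested.

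**Figure D1:**
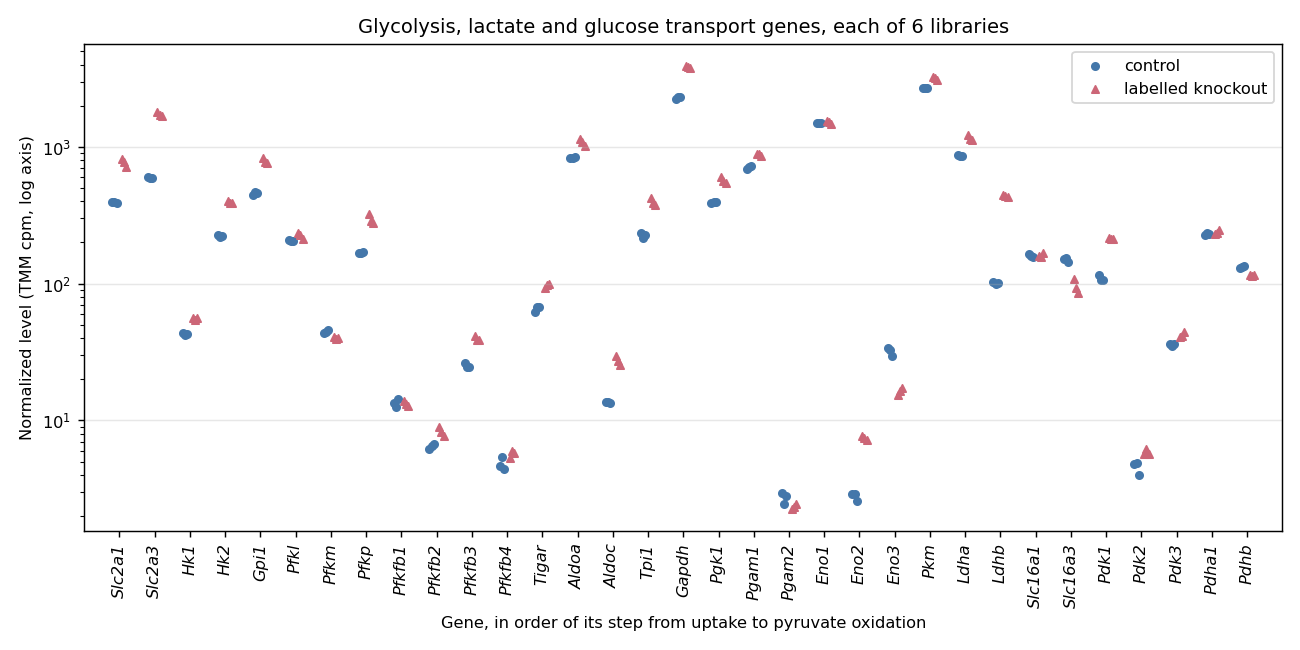
Normalized level of each of the 33 genes (cpm after TMM scaling, log axis) in the 3 control libraries (circles) and the 3 libraries labelled knockout (triangles), ordered along the pathway. Gapdh and Pkm stand highest in both groups, and Ldhb, at 431 to 445 cpm in the libraries labelled knockout, shows the widest gap between the groups.

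Glucose enters mESCs through facilitative transporters, and both on the list were higher. Slc2a3 encodes GLUT3, the high-affinity carrier known from neurons and early embryos. It had 17086, 16343 and 16354 counts in the controls and 47134, 42282 and 47541 in the other group. The groups lay far apart, and the change was 2.90-fold (log2 fold change 1.53 ± 0.02, SE). Slc2a1, which encodes the widespread carrier GLUT1, had 11213, 10815 and 10723 counts in the controls against 21338, 18968 and 20061, a change of 1.94-fold (0.96 ± 0.03). All 3 libraries labelled knockout were above every control for both genes. Per kilobase of transcript, Slc2a3 made up 42.4% ± 0.12 of the summed level of this pair in the controls and 52.3% ± 0.95 in the libraries labelled knockout (SD, n = 3 each). Which of the pair is larger rests on the length used: in counts without division by length, Slc2a3 was 60.3% in the controls and 69.4% in the other group. The summed level per kilobase of the pair was 195 cpm in the controls and 458 cpm in the libraries labelled knockout, a ratio of 2.35, the largest of the 10 isozyme families of the list.

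The hexokinases, which trap glucose in the cell as its phosphate, were both called higher. Hk2, the inducible isozyme of muscle, tumors and early embryos, had 6376, 6017 and 6133 counts in the controls and 10525, 9640 and 11056 in the libraries labelled knockout (log2 fold change 0.83 ± 0.02). Hk1, the housekeeping isozyme, had 1167 to 1224 counts in the controls and 1341 to 1591 in the other group, a smaller difference of 0.37 ± 0.04. Hk2 made up 88.1% of the pair per kilobase in the controls and 91.1% in the libraries labelled knockout. Gpi1, the isomerase of the next step, had 12592 to 12823 counts in the controls and 19261 to 21831 in the libraries labelled knockout (0.79 ± 0.03).

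Phosphofructokinase, the committed step, moved in different directions by isozyme. Pfkp, the platelet form, had 4700, 4626 and 4656 counts in the controls and 8500, 7127 and 7881 in the libraries labelled knockout (log2 fold change 0.82 ± 0.03). Pfkl, the liver form, was called higher by only 0.11 ± 0.03, and Pfkm, the muscle form, was called lower at -0.14 ± 0.04. Per kilobase of merged exons, Pfkl had the largest share, with 54.5% in the controls and 49.4% in the libraries labelled knockout. Pfkp had 22.1% ± 0.11 and 32.8% ± 1.02, and Pfkm 23.4% and 17.8%. In counts without division by length, Pfkl had 49.3% in the controls and 39.8% in the other group, Pfkp 40.1% and 53.0%, and Pfkm 10.6% and 7.17%, so the order of the isozymes depends on the length, and the direction of each share does not.

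The level of fructose 2,6-bisphosphate, the activator of phosphofructokinase, is set by the Pfkfb enzymes, which both make and remove it, and lowered by Tigar, a phosphatase known as a p53 target. Pfkfb3, the form with the strongest kinase activity, had 741, 680 and 673 counts in the controls and 1076, 960 and 1087 in the libraries labelled knockout (0.65 ± 0.05). Tigar had 1750, 1852 and 1846 against 2439, 2404 and 2802 (0.56 ± 0.03), so the kinase and the phosphatase were both higher. Pfkfb2, the heart form, was called higher at 0.36 ± 0.09 and lies on chromosome 1, where the 979 other genes averaging 10 counts or more had a median of 0.50. Pfkfb1, the liver form, had 12.6 to 14.3 cpm in the controls and 12.6 to 14.0 cpm in the libraries labelled knockout, and was not called. Pfkfb4 had 130, 149 and 122 counts in the controls and 139, 148 and 162 in the other group. Its normalized values overlapped, and its call at 0.24 ± 0.10 was lost under DESeq2, at an FDR of 0.01 and when control line 1, control line 3 or line 2 or 3 of the labelled knockout was left out. Pfkfb1 and Pfkfb3 had about equal shares of the family per kilobase in the controls (39.0% ± 2.04 and 38.9% ± 1.44), and Pfkfb3 had the larger share in the libraries labelled knockout (30.4% and 48.3%). In counts without division by length, Pfkfb3 was the larger in both groups (50.4% and 59.2%).

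**Figure D2:**
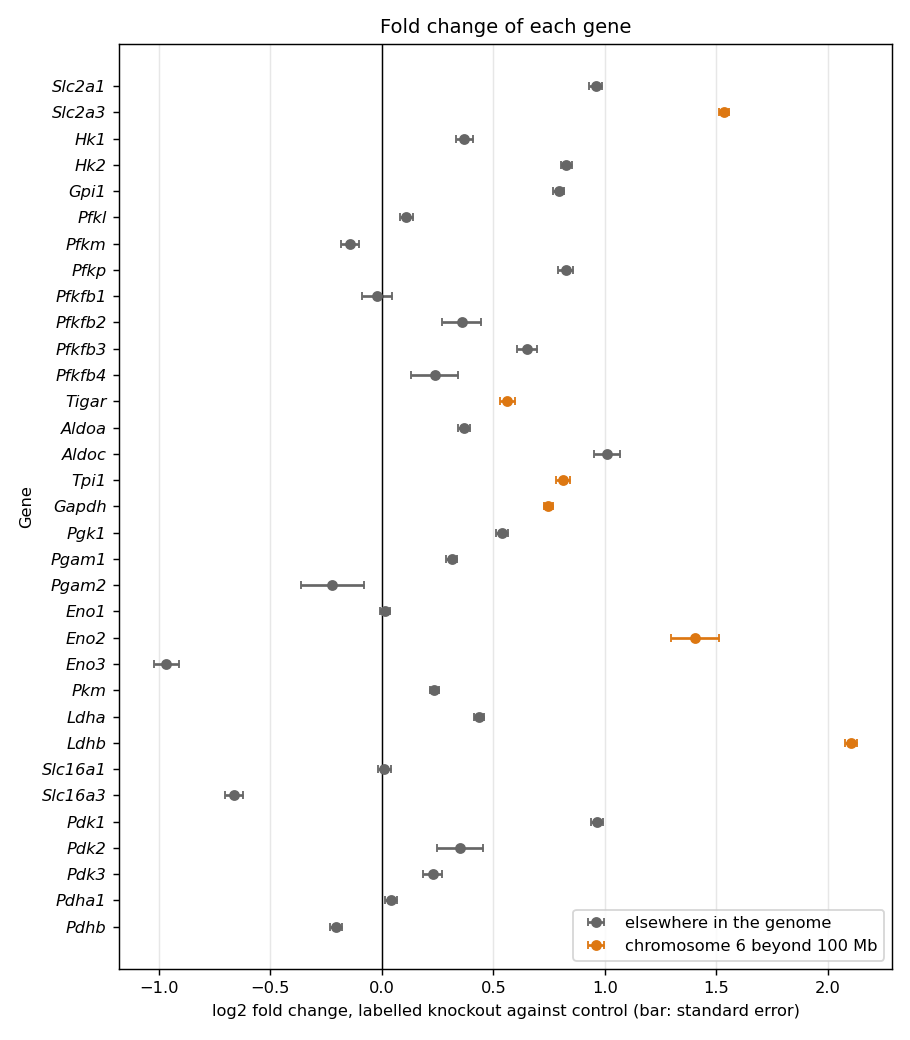
Log2 fold change of each gene, libraries labelled knockout against controls, with its standard error, in pathway order and orange marks the genes beyond 100 Mb of chromosome 6. Ldhb, Slc2a3 and Eno2 lie farthest to the right, Eno3 and Slc16a3 farthest to the left, and Eno1, Slc16a1, Pdha1 and Pfkfb1 sit close to 0.

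The middle of the pathway was called higher at every step, from aldolase to phosphoglycerate kinase. Aldoc, the aldolase of brain, had 382, 372 and 371 counts in the controls and 767, 666 and 718 in the libraries labelled knockout (1.01 ± 0.06). It remained a small part of its family, 1.43% of the level per kilobase in the controls and 2.21% in the other group, beside Aldoa, the general form, at 0.37 ± 0.03. Tpi1, which interconverts the triose phosphates, had 6632, 5902 and 6232 against 11092, 9557 and 10603 counts (0.81 ± 0.03). Gapdh, the dehydrogenase that makes the first NADH of the pathway and a common reference gene for expression assays, had 63461, 63809 and 63830 counts in the controls. In the libraries labelled knockout it had 101843, 95314 and 107264, a difference of 0.75 ± 0.02 (1.68-fold). Gapdh alone was 0.234% ± 0.0045 of all counted fragments in the controls and 0.379% ± 0.0066 in the libraries labelled knockout (SD, n = 3 each), and it ranked first of the 33 per kilobase of merged exons in both groups. Values scaled to Gapdh would therefore differ between the groups from the TMM values given here. Pgk1, the first ATP-making kinase, was higher by 0.54 ± 0.03, and Pgam1, the mutase of most tissues, by 0.31 ± 0.02. Pgam2, the muscle mutase, had only 57 to 83 counts in any library and was not called.

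The enolases did not move together. Eno1, the general enolase, had 41922, 41444 and 41267 counts in the controls and 40512, 37167 and 41859 in the other group. The normalized groups overlapped, and the gene was not called (0.01 ± 0.02). Eno2, the neuronal enolase, had 82, 80 and 71 counts in the controls and 202, 183 and 202 in the other group (1.41 ± 0.11), a large ratio at the lowest level per kilobase of the list in the controls. Eno3, the muscle enolase, had 946, 905 and 816 against 403, 406 and 489 counts, and was called lower at -0.97 ± 0.05. The 3 listed enolases together were at 298 and 293 cpm per kilobase, a ratio of 0.98, and this sum leaves out the lower copy Eno1b described next. Eno1b, a retrotransposed copy of Eno1 that is not on the list, fell from 7796, 7725 and 7629 counts to 3212, 3027 and 3502 (log2 fold change -1.18 ± 0.03, adjusted p = 7.29e-38, edgeR quasi-likelihood test). Fragments that mapped to several places were discarded by the authors, so Eno1 and Eno1b are both under-counted by an unknown share, and reads of such near-identical genes cannot be assigned with certainty. Counted as an enolase, Eno1b made up 33.3% of the family per kilobase in the controls and 18.3% in the libraries labelled knockout. Other copies were looked for only by name, as a listed symbol with a copy suffix, or as Aldoart1 and Aldoart2. Of these, Pgam1-ps2 had 234 to 315 counts per library and Pgk1-rs7 39 to 69, and the rest at most 10. Copies under other names were not looked at, so how far other listed genes, Gapdh among them, are under-counted is not known. Pkm, the pyruvate kinase that ends the pathway, was called higher at 0.24 ± 0.02 and ranked second per kilobase in both groups.

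Of the lactate dehydrogenases, Ldhb, the heart subunit, showed the widest difference of the list. It had 2910, 2754 and 2794 counts in the controls and 11617, 10781 and 12172 in the libraries labelled knockout. No library of one group came near the other, and the change was 4.30-fold (2.10 ± 0.03). Ldha, the muscle subunit, had 24435, 23464 and 23556 counts against 31744, 28349 and 31735, a change of 1.35-fold (0.44 ± 0.02). Ldhb was 20.0% ± 0.12 of the pair per kilobase in the controls and 44.3% ± 0.62 in the libraries labelled knockout (SD, n = 3 each). Counted without regard to length, the difference in this share was 16.8 percentage points rather than 24.3. Ldhb went from rank 12 to rank 7 of the 33 genes per kilobase, and Ldha from 6 to 5. The summed level of the pair per kilobase was 1.94-fold higher, a ratio that also depends on the lengths used.

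Of the lactate carriers, 1 was called lower and the other not called. Slc16a3, which encodes MCT4, the carrier known from cells that export lactate, had 4277, 4267 and 3979 counts in the controls and 2823, 2279 and 2398 in the libraries labelled knockout (-0.66 ± 0.04). Line 1 of the labelled knockout was the highest of its group at 108 cpm, and line 3 the lowest at 84.9 cpm, both under the lowest control (145 cpm). Slc16a1, which encodes MCT1, had 4668, 4350 and 4321 against 4147, 3880 and 4757 counts, overlapped between the groups and was not called. The share of Slc16a3 in the pair was 43.9% ± 0.94 per kilobase in the controls and 32.9% ± 3.31 in the other group. The carriers' chaperones, from a separate list, were lower as well. Emb, which encodes embigin, fell from 3749, 3610 and 3673 counts to 752, 775 and 840 (log2 fold change -2.15 ± 0.04, adjusted p = 3.47e-43), and Bsg, which encodes basigin, fell by 0.38 on the log2 scale (adjusted p = 5.23e-18, edgeR quasi-likelihood test for both). The other 2 carriers of that list were not tested for want of counts.

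At the entry of pyruvate into the mitochondria, Pdk1, a kinase that switches the pyruvate dehydrogenase complex off, had 3252, 2911 and 2928 counts in the controls and 5667, 5241 and 5945 in the libraries labelled knockout (0.96 ± 0.03). Pdk2 (0.35 ± 0.10) and Pdk3 (0.23 ± 0.04), kinases of the same family, were called higher by less. Per kilobase of merged exons, Pdk1 was 47.6% ± 0.79 of the family in the controls and 60.1% in the libraries labelled knockout, and Pdk3 47.5% ± 0.99 and 35.9%. In counts without division by length, Pdk1 was 73.0% in the controls and 81.7% in the other group, and Pdk3 24.0% and 16.1%. The target of these kinases, Pdha1, a subunit of the complex's first enzyme, was not called (0.04 ± 0.03), and Pdhb, its partner subunit, was called lower at -0.21 ± 0.03.

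**Figure D3:**
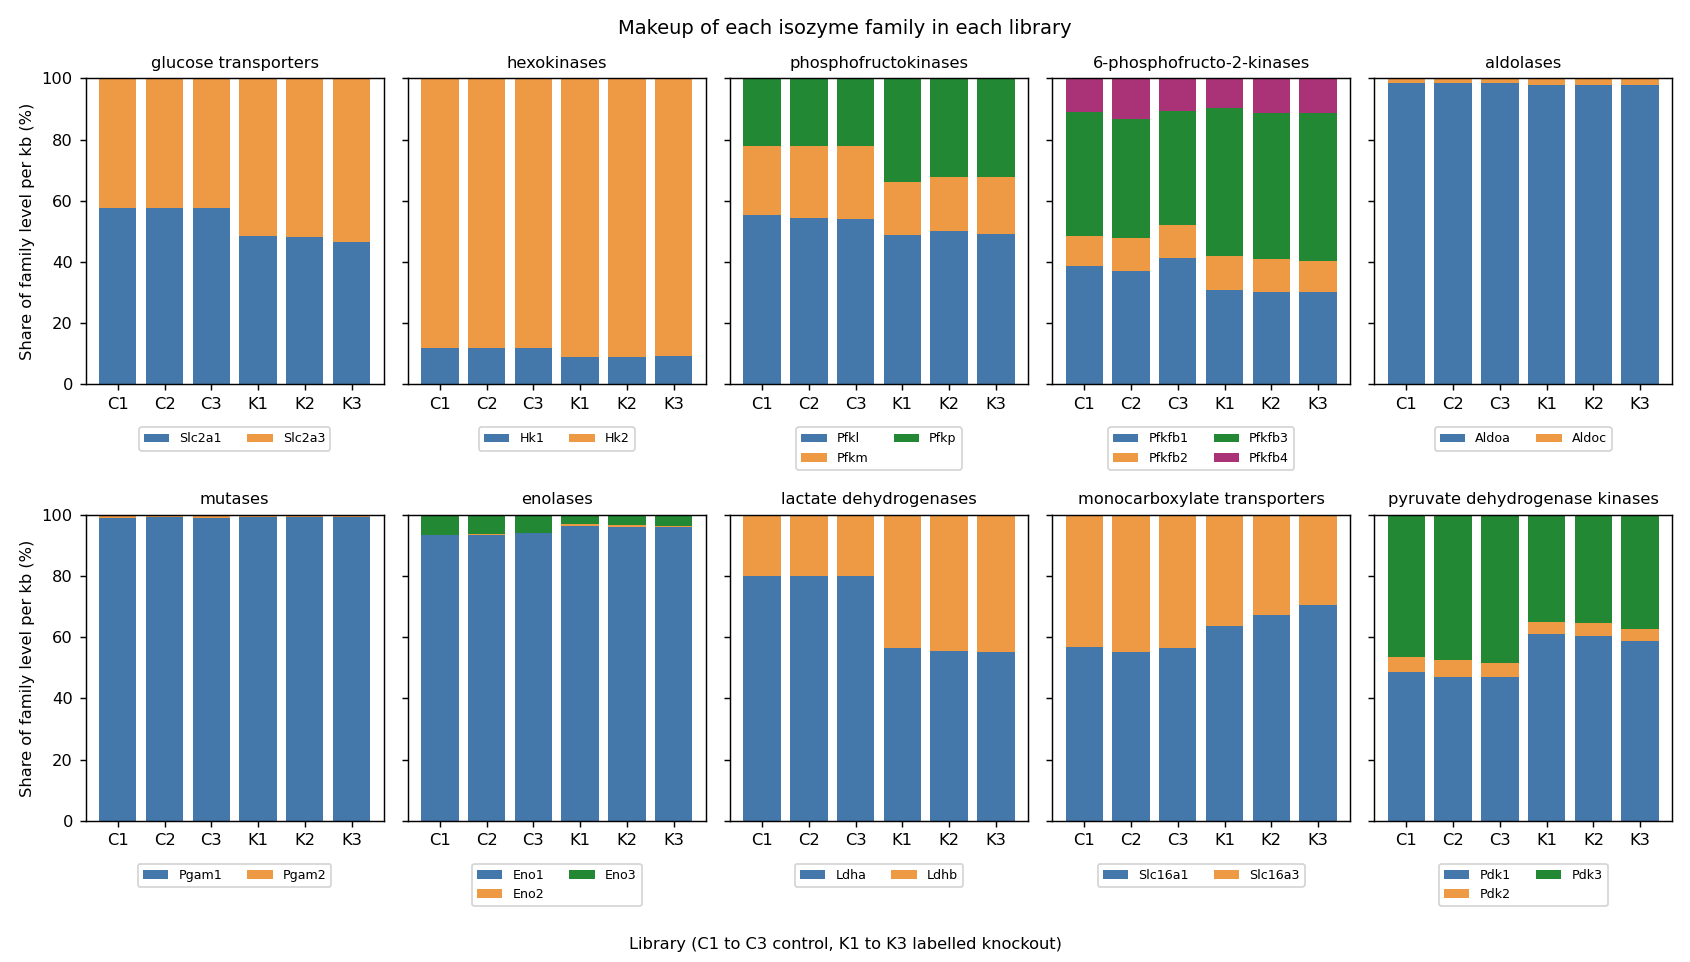
Share of each isozyme in the summed level of its family (cpm per kilobase, percent, bars from 0 to 100), in each of the 3 control libraries (C) and the 3 libraries labelled knockout (K). The share of Ldhb is 20.0% on average in the controls and 44.3% in the others, and the order of isozymes in a family depends on the length used.

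The spread between lines was small beside these differences, but it was not even. Of the 24 genes called higher, 19 had their highest normalized value of the labelled knockout group in line 1, 3 in line 3 and 2 in line 2. The same share over all genes called higher is not given here, so these counts have no background beside them. The share of all counted fragments taken by the 33 genes was likewise highest in line 1 (1.88%). The order of levels per kilobase of merged exons changed little at its top: Gapdh, Pkm, Pgam1 and Aldoa ranked highest, in that order, in both groups, with 557 ± 9.55 and 542 ± 1.99 cpm per kilobase for Gapdh and Pkm in the controls and 933 ± 12.5 and 638 ± 16.6 in the libraries labelled knockout (SD, n = 3 each). With the longest transcript as length, Gapdh ranked 3 in the controls and 2 in the libraries labelled knockout. In the controls Aldoa (287 ± 1.90) and Eno1 (279 ± 1.77) followed each other closely. In bulk RNA, a larger share of cells that express a gene and more RNA of it per cell cannot be told apart.

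Of the 33 genes, 6 lie beyond 100 Mb of chromosome 6, in positions on mm10: Slc2a3 (chr6:122727809-122801640), Eno2 (chr6:124760053-124769673), Tpi1 (chr6:124810586-124814296), Gapdh (chr6:125161715-125166467), Tigar (chr6:127085116-127109557) and Ldhb (chr6:142490249-142507957), all on the minus strand. The rule that set the list named 5 of them and left out Tigar. This end of the chromosome was higher as a whole: its 269 other genes averaging 10 counts or more had a median log2 fold change of 0.49, and 81.4% were above 0, beside a median of 0.0035 and 50.3% for the 15212 other genes elsewhere. The 6 listed genes there had a median of 1.11, and the 27 elsewhere a median of 0.31, with 21 above 0. The 6 made up 0.335% ± 0.0034 of all counted fragments in the controls and 0.642% ± 0.0163 in the libraries labelled knockout, a ratio of 1.92, and the other 27 had a ratio of 1.22. Hk2 is also on chromosome 6, but nearer than 100 Mb, where the median of 418 other genes was -0.0080.

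The 6 differed in how far they stood from the genes around them. Only 3 of the 269 others had a larger fold change than Ldhb, 9 a larger one than Slc2a3 and 10 than Eno2. For Tpi1 this count was 59, for Gapdh 69 and for Tigar 118, so Tigar stood near the middle of its region. Next to Slc2a3, 13176 bases away, lies Nanog, a pluripotency factor, at 1.13 ± 0.02 (adjusted p = 1.20e-39, edgeR quasi-likelihood test), and on the other side Foxj2 at 0.34. Gapdh lies between Ncapd2, a condensin subunit, at 1.03 and Iffo1 at 0.34, and Tpi1 between Usp5 at 0.59 and Spsb2 at 0.41. Iffo1 and Spsb2 overlap these genes by a few bases, and counting used the strand. Eno2 had Atn1 at 0.17 and Spsb2 at 0.41 beside it, and Ldhb had Golt1b at 0.48 and Cmas at 1.00. Tigar had D6Wsu163e at 0.78 and Ccnd2 at 0.22. For Slc2a3, Tpi1, Eno2 and Ldhb, these nearest genes averaging 100 counts or more had smaller differences than the listed gene. Gapdh had a smaller difference than Ncapd2, and Tigar a smaller one than D6Wsu163e. All of these neighbours were called higher. The 6 genes were listed with this contrast known, so their standing among the genes around them is a description. Whether the listed genes were higher through the shift of the region was not tested.

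**Figure D4:**
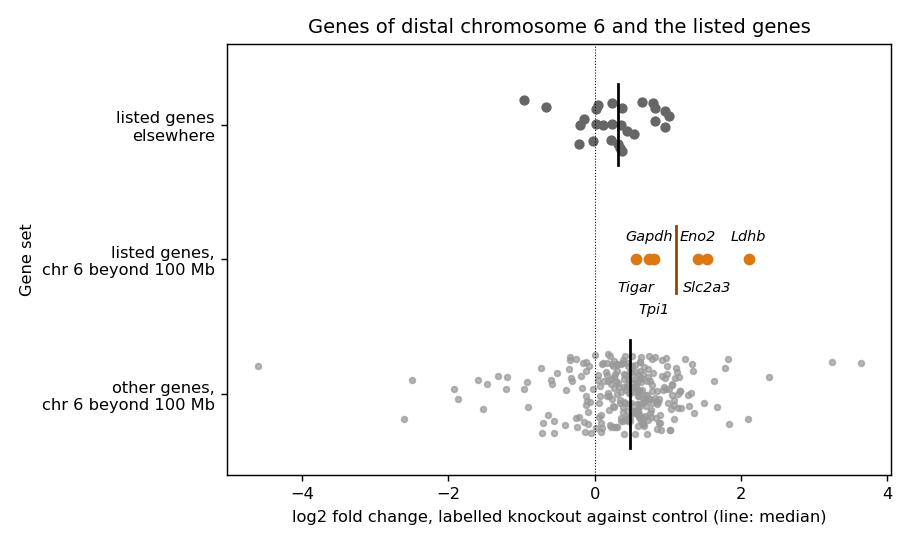
Log2 fold change of the 269 other genes beyond 100 Mb of chromosome 6 (bottom), of the 6 listed genes there (middle, named) and of the 27 listed genes elsewhere (top), each point 1 gene and each line the median. The medians are 0.49, 1.11 and 0.31, and Ldhb lies at the right edge of the region's main cloud.

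Upstream sequence was compared because many of the genes were higher together. The letters ACGTG and GCGTG, the forms of the core to which hypoxia-inducible factors bind, were searched on both strands in the 250 bases before each RefSeq start (RefSeq, GRCm38.p6). All of the genes but Slc2a3 had an entry, so 32 of 33 matched, with 51 windows. Both lactate dehydrogenases, a transporter and a kinase that were higher and the exporter called lower are shown, with matches to these letters in capitals (CACGT and CACGC are the same letters on the other strand, and CACGTG, the E-box that Myc binds, holds ACGTG on both strands).
Ldhb: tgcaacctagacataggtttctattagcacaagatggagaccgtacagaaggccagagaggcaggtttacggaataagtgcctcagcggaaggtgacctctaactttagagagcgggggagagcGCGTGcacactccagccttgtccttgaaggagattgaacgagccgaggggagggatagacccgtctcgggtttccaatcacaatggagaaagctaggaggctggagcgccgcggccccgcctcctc
Ldha: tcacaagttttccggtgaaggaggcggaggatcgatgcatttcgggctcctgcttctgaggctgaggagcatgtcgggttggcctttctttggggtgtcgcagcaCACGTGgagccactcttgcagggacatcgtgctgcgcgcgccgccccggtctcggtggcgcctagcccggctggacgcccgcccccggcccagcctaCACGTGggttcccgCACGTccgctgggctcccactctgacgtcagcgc
Slc2a1: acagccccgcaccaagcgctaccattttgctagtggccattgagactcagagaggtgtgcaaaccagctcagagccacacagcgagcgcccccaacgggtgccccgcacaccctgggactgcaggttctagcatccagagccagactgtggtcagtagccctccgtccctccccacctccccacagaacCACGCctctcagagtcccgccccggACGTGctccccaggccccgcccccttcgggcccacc
Pdk1: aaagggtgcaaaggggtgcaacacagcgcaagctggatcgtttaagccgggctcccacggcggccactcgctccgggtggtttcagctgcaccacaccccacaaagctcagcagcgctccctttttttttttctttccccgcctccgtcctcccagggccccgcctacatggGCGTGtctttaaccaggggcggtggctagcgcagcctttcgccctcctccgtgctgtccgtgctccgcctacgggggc
Slc16a3: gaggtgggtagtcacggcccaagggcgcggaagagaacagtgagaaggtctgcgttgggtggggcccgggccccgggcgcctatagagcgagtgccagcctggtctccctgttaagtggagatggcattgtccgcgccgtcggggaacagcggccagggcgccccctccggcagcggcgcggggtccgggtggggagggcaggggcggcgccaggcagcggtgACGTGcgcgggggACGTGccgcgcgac
They lie at chr6:142507958-142508207 (minus strand) for Ldhb, chr7:46845554-46845803 (plus) for Ldha, chr4:119108495-119108744 (plus) for Slc2a1, chr2:71872974-71873223 (plus) for Pdk1 and chr11:120948817-120949066 (plus) for Slc16a3. The Ldha window ends 4329 bases from the start of the gene in GENCODE, and the Slc16a3 window 587 bases from it, since the catalogues use different first exons. Ldha, higher by 0.44, held 2 CACGTG and 1 further ACGTG. Ldhb, higher by 2.10, held 1 GCGTG, as did Pdk1, and Slc2a1 held 1 of each. Slc16a3, called lower, held 2 ACGTG.

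Either core was present in 37 of the 51 windows of listed genes (72.5%) and in 38.6% of all 32851 windows. ACGTG was in 37.3% against 16.6%, GCGTG in 51.0% against 28.2%, and CACGTG in 11.8% against 6.02%. These windows also held more G and C, a median of 60.4% against 52.4%, and the cores are rich in both. Taking 1 window per gene, 16 of 23 genes called higher held a core, as did 4 of 4 called lower and 4 of 5 not called, so the letters were present in all 3 groups. A match describes the letters of this window only.

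Around this route, the lists of neighbouring pathways held 115 genes, of which 102 were tested. Of these, 55 were called higher, 28 lower and 19 neither, and their median log2 fold change was 0.15. The share called, 81.4%, stands beside 69.5% of all genes tested and 77.1% of those averaging 100 counts or more, and in these data a list's count of calls is read against those shares, with 34.4% of all genes higher and 35.2% lower. The citric acid cycle had 11 of 16 higher and the other 5 not called. With 68.8% called, beside 69.5% of all genes tested and 77.1% of those averaging 100 counts or more, its median was 0.12. Its largest differences were in Fh1, fumarase (0.89, adjusted p = 9.96e-32), and Sdhc (0.70, adjusted p = 2.08e-26), both on chromosome 1, whose other genes had a median of 0.50. Of the pyruvate entry list, 8 of 11 were higher and 2 lower, with 90.9% called. Mpc2, a subunit of the mitochondrial pyruvate carrier, was at 0.56 (adjusted p = 5.47e-09) and also lies on chromosome 1, near that median. Its partner Mpc1 was at -0.29 (adjusted p = 6.13e-05, edgeR quasi-likelihood test here and below).

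The pentose phosphate pathway, which branches off at glucose phosphate, had 6 of 12 tested genes lower and 3 higher. The share called was 75%, beside 69.5% of all genes tested, with 35.2% of all genes lower. Rpia, the ribose phosphate isomerase, fell from 1178, 1130 and 1217 counts to 321, 302 and 318 (-1.83, adjusted p = 6.78e-33). G6pdx, the entry enzyme, fell by 0.43 on the log2 scale (adjusted p = 1.47e-17) and Pgls, the lactonase of the next step, by 0.73 (adjusted p = 3.37e-18), while Rpe, on chromosome 1, was higher at 0.58 (adjusted p = 4.33e-21). In glycogen metabolism, 5 of 10 were higher and 2 lower, and the 70% called was close to the 69.5% of all genes tested. Pgm1, the phosphoglucomutase, rose from 374, 361 and 374 counts to 1493, 1127 and 1357 (1.91, adjusted p = 1.64e-31), and Gbe1, the branching enzyme, fell by 0.93 on the log2 scale (adjusted p = 2.69e-12). Of the 5 tested genes of gluconeogenesis, 3 were higher and 2 lower. Of the other glucose and fructose carriers, 2 of 7 were higher and 4 lower, and of the other glycolytic isozymes, 2 of 8 higher and 3 lower. The share called was 100% in gluconeogenesis, 85.7% in these carriers and 62.5% in these isozymes, beside the same 69.5%.

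Genes of the hypoxia response outside glycolysis were called higher in 17 of 22, with 2 lower and a median of 0.50. That is 86.4% called in either direction, beside 77.1% of all genes averaging 100 counts or more. Of those 11115 genes, 4623 were called higher, and the list also holds Car9 and Adm, which averaged fewer than 100 counts. Ndrg1 (-0.03), Kdm3a (-0.02) and Car9 (0.05) were not called. Egln3, the oxygen-sensing prolyl hydroxylase that is itself induced in hypoxia, had 199, 188 and 180 counts in the controls and 1236, 858 and 938 in the libraries labelled knockout (2.49 ± 0.09, adjusted p = 3.47e-29). Vegfa, the vascular growth factor, had 314, 312 and 298 against 1249, 1061 and 1196 (2.00 ± 0.06, adjusted p = 8.81e-34). Ankrd37 (1.38, adjusted p = 1.49e-21) and Bnip3, a mitophagy receptor (1.31, adjusted p = 3.42e-24), followed. The groups did not overlap for any of the 4, which were named for the size of their change, and 71.5% of all genes tested had no overlap either. Of the hypoxia-inducible factor subunits on the list, the alpha subunit Hif1a (-0.12) and the partner Arnt (-0.37) were the 2 genes called lower, and Epas1, the other alpha subunit, was called higher at 0.55 ± 0.04 (adjusted p = 5.40e-19). These subunits, the genes of this list not called, and the genes called higher among the Myc-related ones below, were named after their values were seen. Of the 17 higher genes, 14 had their highest value of the group in line 1 of the labelled knockout. Without the same share over all genes, this count cannot be read as a trait of the list. In position, 2 genes of the list lie beyond 100 Mb of chromosome 6. The list of Myc, Mondo and Mlx factors also held Txnip and Arrdc4, arrestin-type targets of the Mondo and Mlx factors. Of its 9 genes, Max (0.17), Mlx (0.20), Txnip (0.16) and Arrdc4 (0.47) were called higher and 5 lower, among them Myc (-0.68, adjusted p = 2.20e-20), Mycn (-0.66, adjusted p = 4.84e-27), Mycl (-0.57, adjusted p = 7.31e-10) and Mlxipl, a glucose-sensing factor (-1.90, adjusted p = 9.49e-20). These lists were drawn up with earlier results of the same libraries known, and whether these genes and the glycolytic ones share a cause was not tested.

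**Figure D5:**
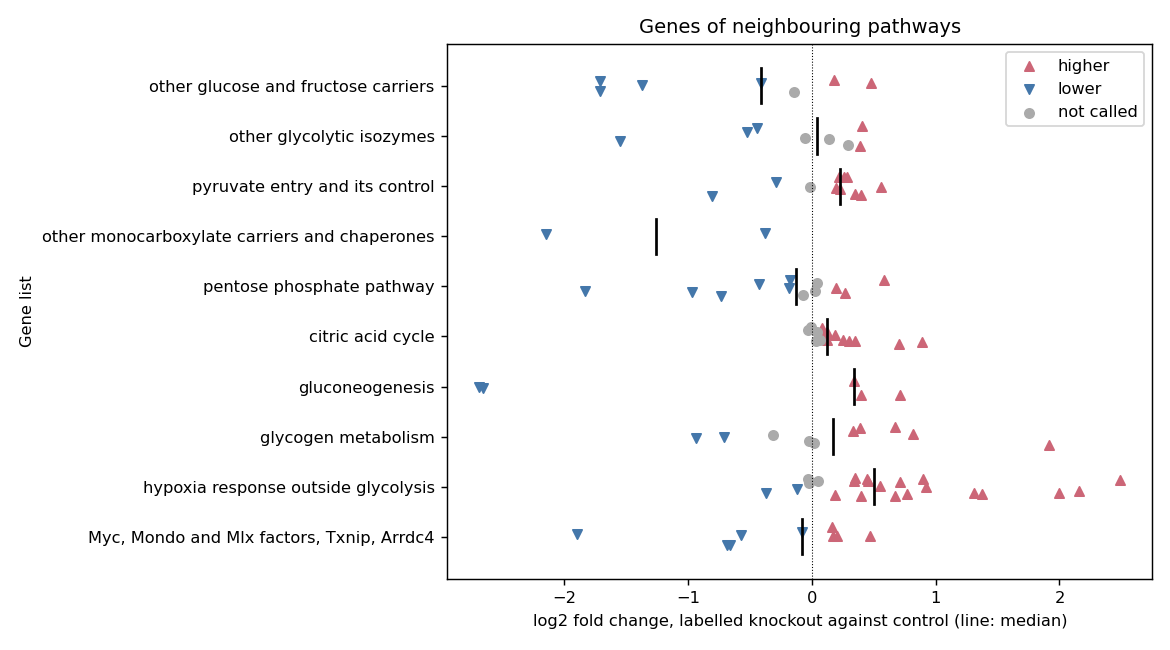
Log2 fold change of the tested genes of 10 neighbouring gene lists, libraries labelled knockout against controls, each point 1 gene, coloured by its call, with the median of each list as a line. Most points of the hypoxia response lie to the right of 0 (median 0.50), and those of the pentose phosphate pathway lie on both sides.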

How the data were processed

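Poly(A) RNA of 6 mESC lines, 3 per group, was sequenced from TruSeq Stranded mRNA libraries. The authors removed rRNA reads with Bowtie2 2.1.0, mapped to mm10 with TopHat2 2.0.10 and counted strand-specific fragments per GENCODE M4 gene with HTSeq 0.6.1, discarding fragments in several genes or at several places (base calling by CASAVA 1.8.2, per the submitters' processing notes). The deposited values are these raw counts per gene, not normalized. All columns were matched to samples by name. A gene was tested if any library held 10 or more of its counts, with edgeR 4.0.16 in R 4.3.3 (TMM scaling, quasi-likelihood test, no covariate), with Benjamini-Hochberg adjustment over all 16823 and a threshold of 0.05. The standard error is the log2 fold change divided by the square root of F. Symbols, positions and lengths came from GENCODE M21 on the same build, which matched 42425 of 43309 genes. Levels between genes were compared as cpm per kilobase of merged exons. DESeq2 1.42.0, other scalings, filters and thresholds, and leaving out each line were tried. All 33 genes are named. Of each other list, up to 4 called genes with the largest change and a mean of at least 100 counts were eligible. The members and lists were chosen with earlier results of these data known. With 3 lines per group, precision rests on the spread between lines.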

Additional observations from a re-analysis of the deposited data

How the results depend on the processing

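A further limit of 1 on the size of the log2 fold change left 4 listed genes higher and 0 lower, 6 and 9 of the neighbouring lists, 5 and 0 of the hypoxia response, and 877 and 1988 of all genes (at the FDR of 0.05 alone, edgeR called 4 of the listed genes lower). The other settings kept 23 or 24 listed genes higher and 4 lower. Among genes not called, the log2 fold change changed sign for Pfkfb1 without control line 3 (0.025) or labelled knockout line 3 (0.015), for Eno1 without labelled knockout line 1 (-0.0034) and for Slc16a1 without control line 2 (-0.0010), control line 3 (-0.0051) or labelled knockout line 3 (-0.020). With 1 line left out, these ranged from -0.069 to 0.025, -0.0034 to 0.030 and -0.020 to 0.033. Without division by length, the change in family share was 3.84 percentage points for Hk2, 12.9 for Pfkp, 0.871 for Aldoc, -0.119 for Pgam2, 0.301 for Eno2, 16.8 for Ldhb and 8.72 for Pdk1. With the longest transcript as length it was 4.57 for Hk2, 0.493 for Aldoc, 0.218 for Eno2 and 20.2 for Ldhb. With Eno1b counted as an enolase, a setting chosen after seeing the data, it was 0.308 for Eno2. The median of the other genes beyond 100 Mb of chromosome 6 was 0.50 with a mean of at least 100 counts, 0.52 beyond 120 Mb, and 0.48 to 0.50 with 1 line left out. With only the 5 genes named with the rule, also chosen after seeing the data, the median of the listed genes there was 1.41. Same-numbered lines share only a number in their names. Their deviations correlated at 0.014, 0.074 and 0.015 over 12360 genes, and not every line correlated best with its own number. A fit with the replicate block called 24 listed genes higher and 4 lower, and 5836 and 5965 of all genes. Scaling moved the median of all genes to at most 0.014. The cause of these differences was not tested, and Eno2 and Pgam2 rest on few counts.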
